A study of Homo sapiens with 6 samples.

Results

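The genes described here are 34 targets of the transcription factor p53, out of 30493 listed genes. They are the rows of the deposited read count table whose symbol was on a fixed list. That list was chosen with earlier results of these data known. Each of the 34 symbols matched 1 row, all 34 passed the filter on low counts, and all are protein-coding. The gene of p53 itself was not on the list. The libraries were made from A549 cells, an established line derived from human lung adenocarcinoma, as 3 poly(A) RNA-seq libraries with STAU1 knockdown and 3 libraries from cells given a control plasmid. STAU1 encodes a protein that binds double-stranded RNA and acts in mRNA localisation and in Staufen-mediated mRNA decay. The comparison asked how the transcriptome of these cells differs once STAU1 is depleted. The labels name 1 cell line, give the knockdown libraries the prefix si, and do not tell whether each library had a culture of its own. The p-values thus cover the spread between these libraries alone, which may be technical. The si prefix and the plasmid label leave unclear whether both groups received the same kind of reagent, and a difference in reagent cannot be told apart from the loss of STAU1.

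p53 is a sequence-specific transcription factor that is held at low amounts by the ubiquitin ligase MDM2 and accumulates when DNA is damaged or growth signals are disturbed. It acts mainly by switching on genes that halt the cell cycle, repair DNA, shift metabolism or promote cell death, and MDM2 is one of those genes, which closes a negative feedback loop. A549 is known to carry an intact p53 gene, so its targets can respond in this line.

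Of the 34 p53 targets 24 were higher in STAU1 knockdown libraries, 3 were lower and 7 were not called, at an adjusted p under 0.05 (edgeR quasi-likelihood test, p-values adjusted by Benjamini-Hochberg over the 17089 genes tested). Calls either way thus numbered 27 of 34. Among all genes tested 22.2% were called higher, 22.0% lower and 44.2% either way. The choice of the 34 genes with earlier results known limits this contrast. The median log2 fold change of the 34 genes, knockdown minus control, was 0.19, against 0 for all genes tested. The changes were small: folds among the 24 higher genes lay between 1.06 and 2.04 with a median of 1.23, and 3 of them, SPATA18, EDA2R and FAS, reached 1.5-fold. In 23 of the 34 genes, all of them called higher, every knockdown library lay above every control library, against 25.8% of all genes tested. The 3 lower genes were TP53INP1, TRIAP1 and SERTAD1, and 5 of the 34 lay below every control library in every knockdown library, against 25.5% of all genes. Groups did not overlap, in either direction, for 28 of the 34 genes, against 51.4% of all genes. Summed over the 34 genes, knockdown replicates 1 to 3 held 2058, 2036 and 2069 CPM (read counts scaled to library depth with TMM factors), against 1751, 1747 and 1770 CPM in control replicates 1 to 3. The sums of the groups did not overlap.

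**Figure D1:**
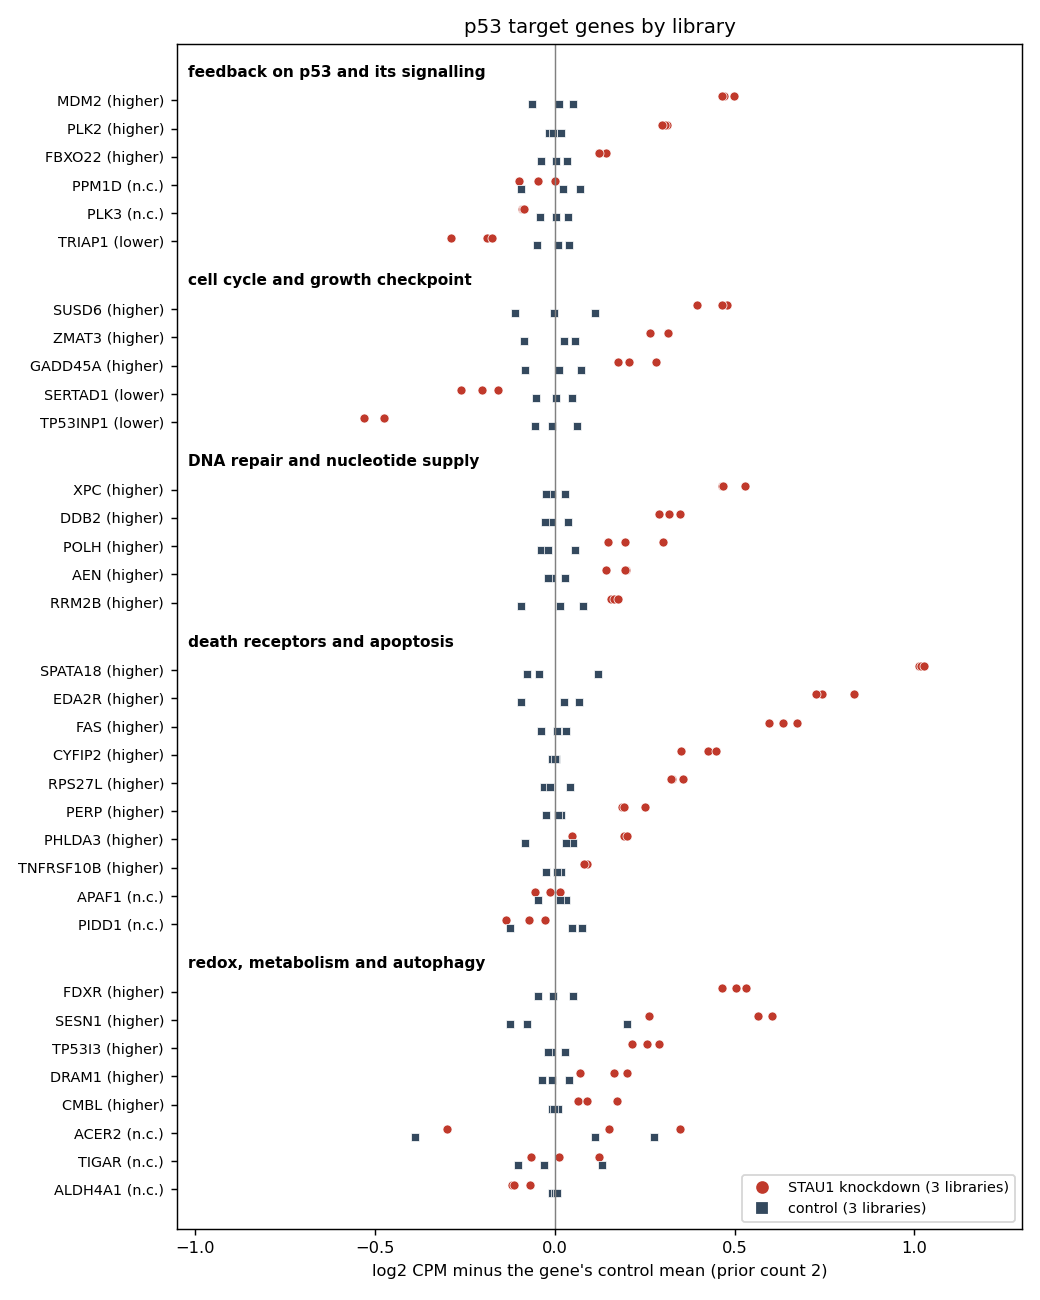
Log2 CPM of each p53 target in each library minus that gene's control mean, with 3 STAU1 knockdown libraries as circles and 3 control libraries as squares, grouped by role; n.c. stands for not called. Circles lie to the right of all squares in 23 of the 24 genes called higher, with SPATA18 farthest to the right and TP53INP1 farthest to the left.

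STAU1 itself (chromosome 20, minus strand, from 49113339 to 49188367 in GENCODE 29 on GRCh38, as for all coordinates of genes given here) stood at 16.02, 15.7 and 14.6 CPM in knockdown replicates 1 to 3 and at 120.5, 124.5 and 117 CPM in control replicates 1 to 3. Total counts per library ranged from 30354219 to 35431441 in the knockdown group and from 31458569 to 32832268 in the control group. Mitochondrially encoded genes took 15.8% to 16.1% of counts in knockdown libraries and 17.3% to 17.9% in control libraries. The 9 markers of A549 and lung adenocarcinoma epithelium were all tested, with 4 called higher and 4 lower, and their summed level was 23500 to 24000 CPM in knockdown libraries and 25900 to 26500 CPM in control libraries. The 10 fibroblast and endothelial markers summed to 12.6 to 13.8 CPM with knockdown and 7.83 to 8.75 CPM in controls, with 3 of 6 tested called higher. Most of that sum was LUM, at a mean of 9.91 CPM with knockdown and 6.05 CPM in controls. CDH5 (1.64 and 0.802 CPM) and PDGFRA (0.449 and 0.212 CPM) were also higher. PDGFRA had only 12, 14 and 19 counts in knockdown libraries and 4, 3 and 13 counts in control libraries. Its groups overlapped (edgeR adjusted p = 0.0461). Of the 6 immune markers 4 were measured, at 16.5 to 19.2 CPM in knockdown and 13.6 to 15.3 CPM in control libraries. Most of the immune sum was CD14, at a mean of 15.94 CPM with knockdown and 12.75 CPM in controls, while PTPRC and CD3E were not listed. Of the 8 markers of other lines and erythroid cells 6 were measured, at 2.14 to 2.41 CPM with knockdown and 1.76 to 1.87 CPM in controls. No measured marker was at 0 in all libraries. The part of these differences in the p53 target values was not tested.

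Promoter sequence was examined because p53 binds a known consensus, a pair of 10-base elements with a C and a G at fixed places in the core of each. RefSeq promoter windows on GRCh38.p14, from 250 bases before to 50 after each annotated start, were at hand for 27 of the 34 genes. The p53 consensus was searched with a gap of 0 to 3 bases between the elements, the C and G of each core fixed and at most 3 mismatches elsewhere. The consensus is a near-palindrome, so matches on both strands were covered. At least 1 window held a match in 8 of these 27 genes (29.6%), against 5.8% of the 27305 genes with windows and 6.3% of the 11490 tested genes with windows. All 8 were among the 18 higher genes with a window, and 0 of the 9 others with a window held one. A gene counted if any of its windows matched, and windows per gene differed. The 18 higher genes had 30 windows, all 27 genes 40 and the 27305 genes 35116, which limits both contrasts. With at most 2 mismatches the counts were 4 of 27 genes (14.8%) and 1.2% of all genes with windows. A match describes these letters only, and p53 elements that lie in introns or farther upstream were outside the windows. The 34 genes were listed as p53 targets, which limits the contrast of their share with that of all genes. The matched stretches of these 8 genes are shown because they are what the counts rest on. The other 10 higher genes with a window held none. Sequences are written 5′ to 3′ on the strand of the gene with the 4-base core of each element in capitals:
DDB2, chr11:47214979-47214999, plus strand, 0 mismatches: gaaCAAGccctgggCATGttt
DDB2, chr11:47214969-47214988, plus strand, 1 mismatch: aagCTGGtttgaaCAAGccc
MDM2, chr12:68808923-68808942, plus strand, 2 mismatches: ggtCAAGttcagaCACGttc
FAS, chr10:88991309-88991328, plus strand, 2 mismatches: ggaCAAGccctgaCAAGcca
AEN, chr15:88621306-88621325, plus strand, 2 mismatches: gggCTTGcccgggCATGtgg
SESN1, chr6:109009018-109009037, minus strand, 3 mismatches: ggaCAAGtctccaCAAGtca
RPS27L, chr15:63157527-63157546, minus strand, 3 mismatches: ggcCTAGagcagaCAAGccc
FDXR, chr17:74872996-74873015, minus strand, 3 mismatches: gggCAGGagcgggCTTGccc
PLK2, chr5:58460196-58460218, minus strand, 3 mismatches: agaCTTGcttcccggcCACGcgc
The DDB2 stretches overlap each other and share an element.

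**Figure D2:**
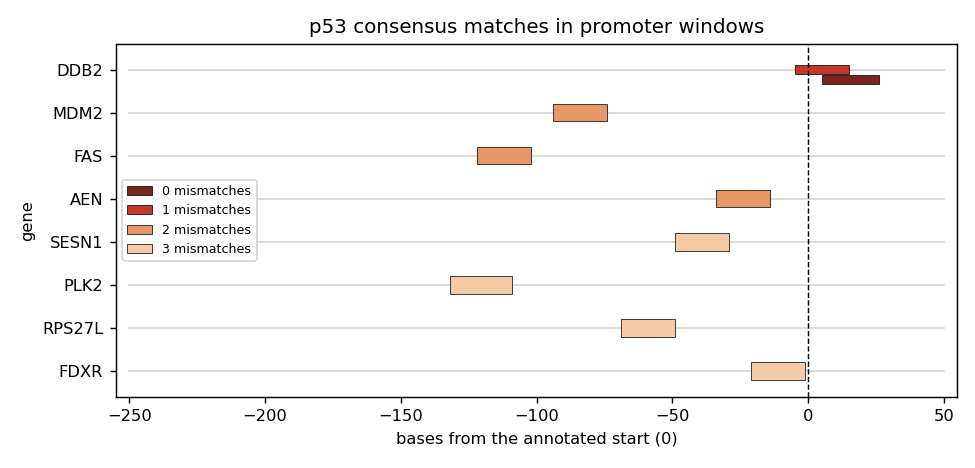
Position of each p53 consensus match relative to the annotated start it was found at (dashed line at 0), in bases, for the 8 genes with a match; colour gives the number of mismatches and grey lines span the windows from 250 bases before to 50 after the start. Matches lie between 132 bases before and 25 bases after a start, and DDB2 alone held a match with 0 mismatches.

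Among the 6 genes that feed back on p53 or act on its signalling, 3 were higher, 1 was lower and 2 were not called. The counts of this and the other role groups stand beside 22.2% higher and 22.0% lower among all genes tested. The role groups were chosen with earlier results of these data known. MDM2 (ENSG00000135679.26, chromosome 12, 68808176 to 68850686, plus strand), the ubiquitin ligase that marks p53 for degradation, had 102, 100.5 and 100.1 CPM in knockdown replicates 1 to 3 and 69.5, 73.1 and 75.1 CPM in control replicates 1 to 3. All knockdown libraries lay well above all controls (log2 fold change 0.48, SE 0.03, edgeR adjusted p = 8.0e-18). PLK2, a polo-like kinase that is induced by p53 and acts in centriole duplication, had 99.04, 98.7 and 97.99 CPM with knockdown and 78.9, 80.8 and 79.5 CPM in controls. The groups did not overlap (0.31, SE 0.03). FBXO22, the substrate receptor of a ubiquitin ligase that targets p53 complexes, averaged 77.4 ± 0.639 CPM with knockdown and 70.8 ± 1.78 CPM in controls (SD, n = 3 each), a called rise of 0.13 on the log2 scale (SE 0.03).

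TRIAP1, a small mitochondrial protein that restrains apoptosis, ran the other way, with 52.4, 48.8 and 52.9 CPM in knockdown libraries and 60.1, 57.7 and 61.3 CPM in control libraries. Knockdown libraries were lowest without overlap (-0.22, SE 0.04, edgeR adjusted p = 4.3e-06). That call ended on both FPKM scales, with -0.10 (limma adjusted p = 0.0939) on log2(FPKM + 1) and -0.11 (limma adjusted p = 0.0907) on log2(FPKM + 0.1). PPM1D, the phosphatase that switches off p53 signalling, was not called at 15.2 ± 0.538 CPM with knockdown and 15.8 ± 0.9101 CPM in controls (-0.05, approximate 95% interval -0.17 to 0.08). PLK3, a stress-response polo-like kinase, was also not called, although its knockdown values of 5.56, 5.58 and 5.59 CPM lay below its control values of 5.77, 5.95 and 6.09 CPM (-0.09, approximate 95% interval -0.29 to 0.11).

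Of the 5 genes of cell cycle and growth control, 3 were higher and 2 lower. ZMAT3, a zinc finger RNA-binding protein, had 29.01, 28.1 and 29 CPM in knockdown libraries and 24.3, 22.0 and 23.8 CPM in control libraries, without overlap (0.30, SE 0.05, edgeR adjusted p = 2.2e-06). SUSD6, a membrane protein with a growth-suppressing role, had 11.3, 10.7 and 11.2 CPM with knockdown and 7.51, 8.11 and 8.76 CPM in controls. It was the most raised gene of this group (0.45, SE 0.08). GADD45A, which binds PCNA and the mitotic kinase CDK1 to hold the cell cycle, averaged 16.7 ± 0.636 CPM with knockdown and 14.4 ± 0.775 CPM in controls (0.22, SE 0.06).

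TP53INP1 (ENSG00000164938.14, chromosome 8, 94925972 to 94949411, minus strand), a stress protein that promotes cell death and autophagy, was the most lowered of the 34 genes. Its values were 19.03, 19.8 and 19.8 CPM in knockdown replicates 1 to 3 and 28.7, 26.5 and 27.4 CPM in control replicates 1 to 3. The groups were far apart (-0.49, SE 0.05, edgeR adjusted p = 3.5e-11), and the value shrank to -0.30 on log2(FPKM + 1) while the call held. SERTAD1, a regulator of CDK4 and of E2F transcription, had 18.6, 17.8 and 19.2 CPM with knockdown and 20.6, 21.4 and 22.1 CPM in controls (-0.21, SE 0.06). Its call ended with total-count scaling (-0.13, edgeR adjusted p = 0.0502), on log2(FPKM + 1) (-0.09, limma adjusted p = 0.151) and on log2(FPKM + 0.1) (-0.10, limma adjusted p = 0.148).

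All 5 genes of DNA repair and nucleotide supply were higher and showed no overlap between groups. Of all genes tested 22.2% were called higher, and 25.8% had every knockdown library above every control library. XPC (ENSG00000154767.15, chromosome 3, 14145147 to 14178783, minus strand), which recognises helix-distorting lesions at the start of nucleotide excision repair, had 39.9, 41.8 and 39.99 CPM in knockdown replicates 1 to 3 and 28.8, 28.4 and 29.5 CPM in control replicates 1 to 3. This was the largest rise of the group (0.49, SE 0.04, edgeR adjusted p = 2.4e-13). Exons of LSM3, which lies on the opposite strand, overlap XPC exons over 318 bases, and use of strand in the counting was not given in the sources used here. An antisense gene with 119 counts over the 6 libraries shares a further 23.8% of the exonic bases of XPC. LSM3 itself was lower, at 85.6, 87.6 and 88.7 CPM with knockdown and 104.3, 99.7 and 104.7 CPM in controls, the opposite direction to XPC. In all, 16 of the 34 genes share exonic bases with another annotated gene. Of the 14 such partners tested that had at least 100 counts over the 6 libraries, 4 were higher, 2 lower and 8 not called. Shares over all genes tested were 22.2% higher and 22.0% lower. The 4 higher partners each lie beside a higher p53 target, but so do most of the 14. The higher partners were ACTA2 beside FAS, RHOBTB2 (0.47, SE 0.04) beside TNFRSF10B, ADAM19 (0.58, SE 0.09) beside CYFIP2 and the carboxypeptidase M gene (0.61, SE 0.09) beside MDM2. The lower ones were LSM3 and RPLP2 (-0.16, SE 0.02), which overlaps PIDD1.

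DDB2, the damage sensor that works ahead of XPC on ultraviolet lesions, had 56.3, 55.2 and 57.5 CPM with knockdown and 44.9, 44.3 and 46.3 CPM in controls (0.32, SE 0.04). AEN, a p53-induced nuclease that acts in apoptosis, had 56.4, 56.3 and 54.3 CPM in knockdown libraries and 50.2, 48.8 and 48.5 CPM in control libraries (0.18, SE 0.04). Both genes were separated by several CPM between the groups, and both hold a consensus match in the stretches printed above. RRM2B, the ribonucleotide reductase subunit that supplies nucleotides for repair, rose by 0.16 on the log2 scale (SE 0.04, at 48.4 ± 0.335 CPM with knockdown and 43.2 ± 2.59 CPM in controls). POLH, the translesion polymerase that bypasses ultraviolet damage, averaged 12.3 ± 0.682 CPM with knockdown and 10.6 ± 0.369 CPM in controls (0.22, SE 0.07). The POLH call ended in DESeq2 (adjusted p = 0.0672), without control replicate 1 (0.20, edgeR adjusted p = 0.0512) and without knockdown replicate 2 (0.17, edgeR adjusted p = 0.0808).

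Of the 10 genes of death receptors and apoptosis, 8 were higher, 0 lower and 2 not called. Their median of 0.27 was the highest of the 5 role groups. Those groups were chosen with earlier results known, so the ranking describes the grouping only. SPATA18 (ENSG00000163071.11, chromosome 4, 52051331 to 52097292, plus strand), which acts in mitochondrial quality control, had 9.27, 9.30 and 9.35 CPM in knockdown replicates 1 to 3 and 4.32, 4.97 and 4.43 CPM in control replicates 1 to 3. It was the only 1 of the 34 genes past 2-fold (1.03, SE 0.09, edgeR adjusted p = 7.5e-13). These levels rest on 290, 297 and 338 counts in knockdown libraries and 134, 152 and 141 counts in control libraries, and the log2 value was 0.60 on log2(FPKM + 1). EDA2R (ENSG00000131080.15, chromosome X, 66595637 to 66639298, minus strand), a receptor of the tumour necrosis factor family, had 18.7, 19.9 and 18.5 CPM with knockdown and 11.7, 11.4 and 10.5 CPM in controls. The lowest knockdown library lay well above the highest control (0.77, SE 0.07).

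FAS, the death receptor for FAS ligand, had 18.8, 18.3 and 19.3 CPM in knockdown libraries and 11.8, 12.2 and 12.4 CPM in control libraries. Groups were widely separated (0.64, SE 0.06, edgeR adjusted p = 5.1e-12). ACTA2, the smooth muscle actin gene on the opposite strand, shares 380 exonic bases with FAS, which is 8.9% of the exonic bases of FAS. ACTA2 had 16.1, 15.2 and 16.7 CPM with knockdown and 6.25, 5.75 and 4.83 CPM in controls, so both genes of this overlapping pair were higher. Reads over the shared bases cannot be assigned from the counts, and their part in the FAS value was not tested. TNFRSF10B, the TRAIL receptor DR5, moved far less, at 152, 152.4 and 151.6 CPM with knockdown and 144.8, 143.7 and 140.8 CPM in controls (0.09, SE 0.02), though without overlap.

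RPS27L, a ribosomal protein-like factor that stabilises p53 through MDM2, had 412, 403.7 and 402.9 CPM with knockdown and 315, 319 and 332 CPM in controls. It had the second smallest adjusted p of the 34 genes after MDM2 (0.34, SE 0.02, edgeR adjusted p = 1.2e-17), and its close paralog RPS27 may share reads. CYFIP2, a subunit of the WAVE actin regulatory complex, rose by 0.41 (SE 0.05), at 35.8 ± 1.27 CPM with knockdown and 26.98 ± 0.107 CPM in controls. PERP, a desmosome component and apoptosis effector, rose by 0.21 (SE 0.02), at 378.5 ± 9.15 CPM with knockdown and 327 ± 5.08 CPM in controls. PHLDA3, an inhibitor of AKT membrane binding, was the 1 called gene whose groups overlapped, with 55.3, 50.02 and 55.6 CPM in knockdown libraries and 45.7, 50.1 and 49.4 CPM in control libraries (0.15, SE 0.04). Its call ended without control replicate 1 (0.11, edgeR adjusted p = 0.0506). PHLDA3 shares 19.1% of its exonic bases with another gene annotated on the same strand, for which no counts were listed.

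APAF1 and PIDD1 were the genes of this group that were not called. APAF1, the scaffold of the apoptosome, averaged 18.97 ± 0.456 CPM with knockdown and 19.2 ± 0.544 CPM in controls (-0.02, approximate 95% interval -0.13 to 0.09). PIDD1, the scaffold of the caspase-2 complex, averaged 11.5 ± 0.433 CPM with knockdown and 12.2 ± 0.894 CPM in controls (-0.08, approximate 95% interval -0.22 to 0.06). PIDD1 shares 107 exonic bases with the abundant ribosomal gene RPLP2 on the opposite strand.

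Of the 8 genes of redox balance, metabolism and autophagy, 5 were higher and 3 were not called. FDXR, the mitochondrial ferredoxin reductase, had 34.2, 35.05 and 35.7 CPM in knockdown libraries and 23.95, 25.6 and 24.6 CPM in control libraries, with a wide gap between the groups (0.50, SE 0.05, edgeR adjusted p = 8.9e-13). TP53I3, a quinone oxidoreductase linked to oxidative stress, had 128.9, 125.3 and 132 CPM with knockdown and 107.3, 106.5 and 110.0 CPM in controls (0.25, SE 0.03). SESN1, a stress-induced inhibitor of mTORC1 signalling, had 10.5, 13.3 and 13.01 CPM in knockdown libraries and 10.1, 8.30 and 8.04 CPM in control libraries (0.48, SE 0.09). Knockdown replicate 1 and control replicate 1 of SESN1 lay close together, while the others were farther apart.

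DRAM1, a lysosomal membrane protein that promotes autophagy, rose by 0.15 (SE 0.04), at 44.4 ± 2.04 CPM with knockdown and 40.2 ± 1.08 CPM in controls. CMBL, a cytosolic hydrolase, had 39.1, 36.3 and 36.9 CPM with knockdown and 34.9, 34.5 and 34.7 CPM in controls (0.11, SE 0.04, edgeR adjusted p = 0.035). The CMBL call ended without control replicate 1, 2 or 3 (edgeR adjusted p = 0.0652, 0.0942 and 0.0731), without knockdown replicate 1 (0.08, edgeR adjusted p = 0.189), with no filter on low counts (edgeR adjusted p = 0.0564) and in DESeq2 (adjusted p = 0.124). TIGAR, which lowers glycolytic flux, had 0.02 (approximate 95% interval -0.11 to 0.15) and shares 42.6% of its exonic bases with another gene annotated on the same strand. ALDH4A1, a mitochondrial enzyme of proline breakdown that shares 41.1% of its exonic bases with another gene on the same strand, had -0.10 (approximate 95% interval -0.20 to 0.01), with 19.03, 19.1 and 19.7 CPM in knockdown libraries below 20.6, 20.7 and 20.8 CPM in controls. ACER2, an alkaline ceramidase, was barely detected at 16, 14 and 11 counts with knockdown and 15, 13 and 9 counts in controls, a depth at which no modest difference could be seen (approximate 95% interval -0.67 to 0.80).

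Levels of different genes were compared only on the deposited FPKM scale, which divides by gene length. In knockdown libraries the median of the 34 genes stood at 6.26 FPKM, against 4.99 FPKM in controls. FPKM ran higher with knockdown for genes in general. The median log2 fold change of all genes was 0.05 on log2(FPKM + 1) and 0.10 on log2(FPKM + 0.1). PERP was the most abundant at a mean of 79.5 FPKM with knockdown and 63.6 FPKM in controls, followed by TP53I3, with 49.1 FPKM in knockdown and 38.1 FPKM in control libraries. Next came RPS27L at 40.6 FPKM with knockdown and 29.8 FPKM in controls, and TRIAP1 at 32.1 FPKM with knockdown and 34.6 FPKM in controls. By control mean, 7 genes stood at 10 FPKM or more, 25 between 1 and 10 and 2, SPATA18 and ACER2, under 1. Rises were found at both ends of this range, in PERP as in SPATA18. On this scale 24 of the 34 genes had every knockdown library above every control library, against 38.5% of the 17088 tested genes with FPKM values.

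**Figure D3:**
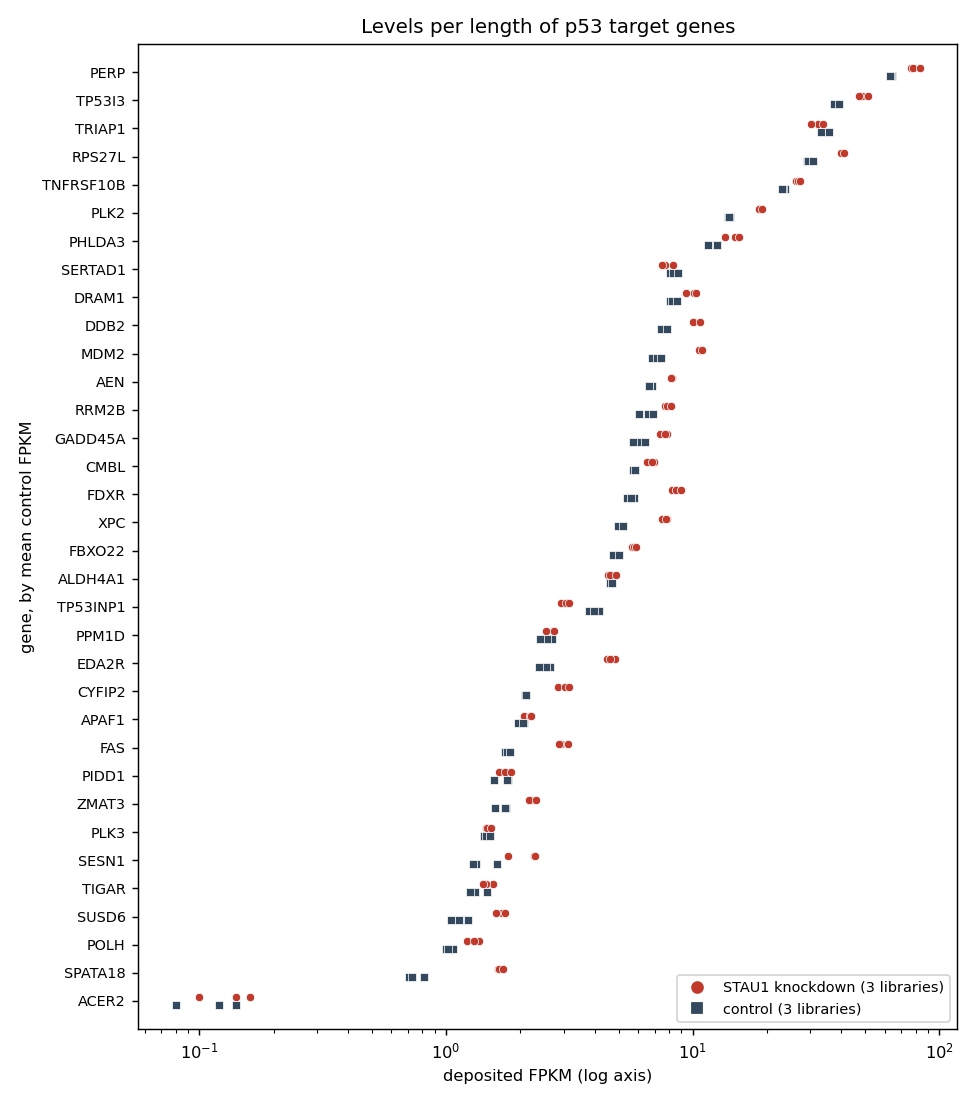
Deposited FPKM of each p53 target on a log axis, with 3 STAU1 knockdown libraries as circles and 3 control libraries as squares, ordered by mean control FPKM. PERP leads at 79.5 FPKM with knockdown and 63.6 FPKM in controls, and ACER2 is last at 0.133 FPKM with knockdown and 0.113 FPKM in controls.

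A further list of 60 reported p53 targets outside the 34 genes showed 31 higher, 10 lower and 18 not called among the 59 tested. Their median was 0.17. For all genes tested the shares were 22.2% higher and 22.0% lower. This list, too, was chosen with earlier results of these data known. BTG2, an antiproliferative cofactor of mRNA deadenylation, had 16.6, 16.2 and 17.4 CPM with knockdown and 7.32, 7.32 and 8.04 CPM in controls (1.15, SE 0.07). KITLG, the ligand of the receptor KIT, rose by 0.71 (SE 0.05), the apoptosis effector BAX by 0.38 (SE 0.03) and FAM210B, a mitochondrial membrane protein, by 0.64 (SE 0.05). BBC3, which encodes the apoptosis activator PUMA and was chosen after its values were seen, had 11.02 ± 0.511 CPM with knockdown and 5.51 ± 0.233 CPM in controls (1.00, SE 0.09). CDKN1A, the p21 inhibitor of cyclin-dependent kinases and also chosen afterwards, had a much smaller rise, at 127 ± 2.83 CPM with knockdown and 114 ± 2.77 CPM in controls (0.16, SE 0.03). Against these, GDF15, a secreted stress cytokine, had 28.5, 24.6 and 31.4 CPM in knockdown libraries and 40.5, 41.5 and 40.5 CPM in control libraries (-0.53, SE 0.07). TGFA, an EGF receptor ligand, changed by -0.35 (SE 0.07) and the plexin receptor gene PLXNB2 by -0.14 (SE 0.03), a call that ended on both FPKM scales.

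Genes that control or assist p53 did not move one way. Of 38 such regulators and cofactors 37 were tested, with 10 higher, 11 lower and 16 not called and a median of -0.03, which turned to 0.05 with total-count scaling, 0.07 on log2(FPKM + 1) and 0.08 on log2(FPKM + 0.1). The shares over all genes tested were 22.2% higher, 22.0% lower and 44.2% either way. TP63, a p53 paralog that recognises similar DNA elements, had 12.9, 13.8 and 13.4 CPM with knockdown and 5.09, 6.28 and 5.75 CPM in controls (1.23, SE 0.08). SETD7, a lysine methyltransferase that modifies p53, rose by 0.47 (SE 0.03), the p53 cofactor JMY by 0.51 (SE 0.07) and the damage response mediator TP53BP1 by 0.23 (SE 0.04). KMT5A, which places a repressive methyl group on p53, fell by 0.54 (SE 0.04), the arginine methyltransferase PRMT5 fell by 0.26 (SE 0.03) and TRIM28, a corepressor that works with MDM2, fell by 0.19 (SE 0.02). The TRIM28 call ended on both FPKM scales.

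**Figure D4:**
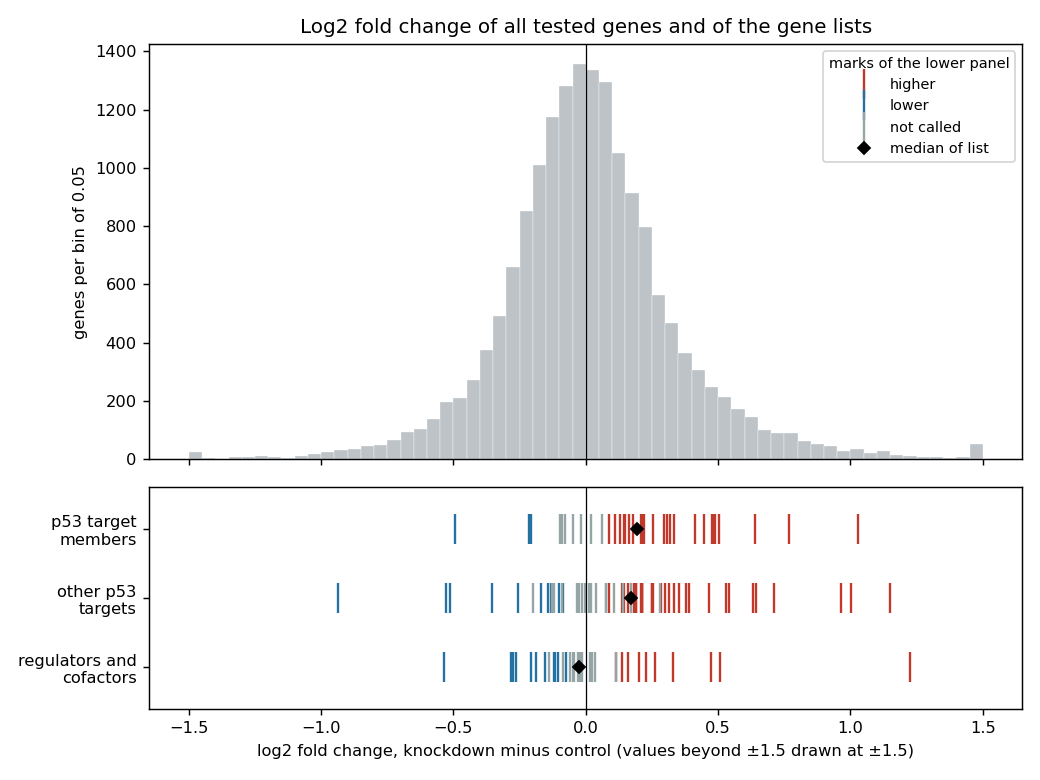
Log2 fold change, knockdown minus control, of all 17089 tested genes as a histogram (top) and of each list as ticks with its median as a diamond (bottom), with values beyond 1.5 drawn at 1.5. The medians are 0.19 for the 34 p53 targets, 0.17 for the other targets and -0.03 for the regulators, while the histogram centres on 0.

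The direction of all 27 called genes held under 16 alternative analyses, and 22 of them kept their call in every one. The 5 that lost it in at least 1 were TRIAP1, SERTAD1, POLH, PHLDA3 and CMBL, and no gene that was not called became so. Over all genes 50.3% of calls were higher, but 69.5% with total-count scaling, 77.3% on log2(FPKM + 1) and 77.2% on log2(FPKM + 0.1). The FPKM analyses changed the measure, the pseudocount and the test together. Several small rises were larger under these settings, and TNFRSF10B stood at 0.16 with total-count scaling and to 0.20 on log2(FPKM + 0.1). FBXO22, RRM2B, AEN, PERP, PHLDA3, DRAM1 and CMBL likewise grew by over 1.5 times under at least 1 of these settings. Relative to the median of all genes, the median of the 34 genes was 0.19 and lay between 0.18 and 0.21 under the alternatives.

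**Figure D5:**
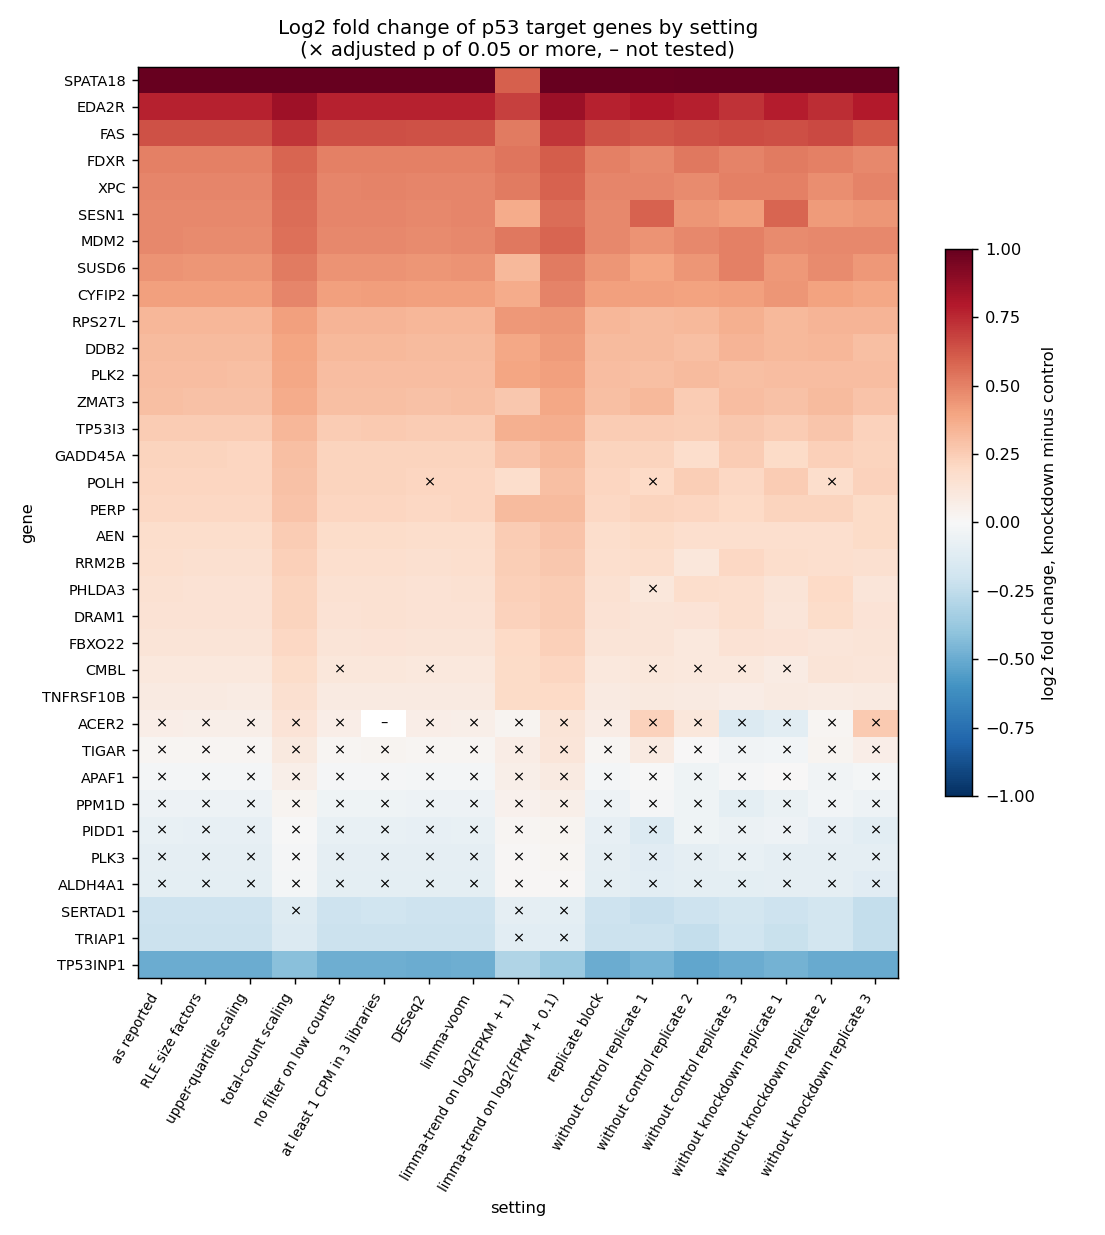
Log2 fold change of each p53 target (rows, ordered by the reported value) under the reported analysis and 16 alternatives (columns), coloured from -1 to 1 with larger values drawn at the end of the scale; crosses mark an adjusted p of 0.05 or more and a dash a gene not tested. Crosses among called genes are confined to POLH, PHLDA3, CMBL, SERTAD1 and TRIAP1.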

How the data were processed

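The authors deposited gene-level read counts for the 6 libraries, and FPKM values (fragments scaled by gene length and depth) rounded to 2 decimals. HISAT2, DESeq2 and GRCh38 are named in the submitters' processing notes without role or version. How reads were counted, with which annotation and strand setting, was not given in the sources used here. Per the labels' protocols the libraries were directional and made from bead-captured mRNA. Counts were filtered with filterByExpr (minimum count 10), which left 17089 of 30493 genes, scaled with TMM and tested with edgeR 4.0.16 (R 4.3.3) by the robust quasi-likelihood test. A gene was called at a Benjamini-Hochberg adjusted p under 0.05. Standard errors were derived from each log2 fold change and its F statistic (size divided by root F), and approximate 95% intervals are 1.96 standard errors. The common dispersion gave a coefficient of variation of 2.61% between libraries of a group. Every pair of replicates differed by more than sampling noise (chi-square per degree of freedom 1.78 to 2.88). The method was run on simulated counts with known changes in a small part of the genes, at dispersions estimated from these data. With 44.2% of genes called here, that setting does not check scaling or error control for these data.

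The members, role groups and further lists were chosen with earlier results of these data known, and the further lists were compiled from general knowledge. Full values are given for the 3 genes of each role group with the smallest adjusted p and for every gene called lower. Outside this rule, values per library are also given for PLK3, TNFRSF10B, PHLDA3, CMBL, ALDH4A1 and ACER2. In each further list the 4 higher and 3 lower genes with the smallest adjusted p are named. FAS, the genes named for exon overlaps, BBC3 and CDKN1A were added after their values were seen. Exon overlaps and coordinates come from GENCODE 29 on GRCh38, promoter sequences from RefSeq. Alternatives used DESeq2 1.42.0, limma 3.58.1 (voom on counts, trend on FPKM), other scalings and filters, a replicate block, and each library left out.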

Additional observations from a re-analysis of the deposited data

How the results depend on the processing

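Counts of p53 targets called higher lay between 22 and 24 under the 10 alternatives that used all libraries. The 3 lower calls became 1 on either FPKM scale. The median of the 34 genes was 0.19 as reported, 0.27 with total-count scaling, 0.22 with the filter of 1 CPM in 3 libraries, 0.25 on log2(FPKM + 1) and 0.29 on log2(FPKM + 0.1). Leaving out 1 library gave 21 to 24 higher calls and medians of 0.18 to 0.21. For the other p53 targets total-count scaling left 6 lower and each FPKM scale 3, with medians of 0.25 with total-count scaling, 0.25 on log2(FPKM + 0.1) and 0.12 to 0.18 without 1 library. Of the regulators total-count scaling left 6 lower and each FPKM scale 3, and their median reversed to 0.052, 0.071 and 0.084 under these settings in that order, with -0.035 to -0.002 without 1 library. Over all genes 2407, 1552 and 1554 were lower under these settings. Total-count scaling left out the TMM factors, which were 1.021 to 1.031 in knockdown libraries and 0.971 to 0.977 in control libraries. The causes were not tested. The median of all genes moved up by 0.08 with total-count scaling, 0.05 on log2(FPKM + 1) and 0.10 on log2(FPKM + 0.1), and the FPKM analyses changed measure, pseudocount and test together. STAU1 lay between -2.99 and -2.93 without 1 library.

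Same-numbered libraries deviated together only weakly, with correlations of 0.07, 0.04 and 0.15 for numbers 1 to 3, and 5 of 6 libraries correlated best with their own number. The labels do not tie the numbers to a shared culture. With the replicate block 24 p53 targets were higher and 3 lower with a median of 0.19, and no call among the 34 genes changed. ACER2 could not be tested with the 1 CPM filter. Depth limits ACER2, with at most 16 counts a library. SPATA18 and SESN1 had the widest errors among the called genes.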
